A study of Mus musculus with 8 samples.

Results

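Astrocyte genes were read from striatal RNA of 8 mice aged 22 months, 4 CHL2 knock-in mutants and 4 wild-type mice, with 1 array per mouse. The genes form a chosen set of 36, of which 22 mark astrocyte identity and 14 mark reactive astrocytes, and all 36 were measured among 18193 genes tested. Each gene was read from the probe set that the annotation assigns to it alone, and from the brightest of these over the 8 arrays where there were several. CHL2 mice are a model of Huntington's disease in which the endogenous Htt gene carries 150 CAG repeats derived from the human disease gene, on both copies. The knock-in sits in the germ line, so every cell type of the striatum carries it, astrocytes included. All mice of both groups were C57BL/6 X CBA F1 hybrids. Mutants 141, 153 and 154 and wild-type mouse 161 were female. Mutant 191 and wild-type mice 170, 180 and 200 were male. The comparison asks which astrocyte transcripts differ in old mice with the expanded repeat. The tissue was not sorted, so more or fewer astrocytes and more or less RNA per astrocyte cannot be told apart in any value below.

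Astrocytes clear glutamate and potassium from the space around synapses, turn glutamate into glutamine, move water and bicarbonate, and are joined to each other by gap junctions. The identity genes encode this machinery, its metabolic enzymes, and the transcription factors and receptors of the cell. When neurons are injured or lost, astrocytes become reactive: they build up the intermediate filament proteins GFAP and vimentin and turn on secreted proteins and cytokine receptors. In the striatum they surround the medium spiny neurons, the output neurons of the tissue, which are the cells most affected in Huntington's disease.

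Values are log2 RMA values, for which a difference of 1 is a factor of 2, and a value under 5 (the log2 of 32) is treated here as near background. The defining astrocyte markers Gfap, Aqp4, Slc1a2, Slc1a3, Aldh1l1 and Gja1 lay above 5 in all 8 mice. Array medians lay between 4.95 and 4.98. Wild-type mouse 170 stood apart in RNA quality, with a 3′ minus 5′ difference of 1.37 for the Gapdh control probe sets, where the other 7 arrays lay between 0.32 and 0.43. For beta-actin its difference was 2.65 and the others lay between 1.23 and 1.51. Changes are mutant minus wild type from limma's moderated linear model with sex as a second term. A gene is said to rise or fall where its p after Benjamini-Hochberg adjustment over all 18193 genes is under 0.05.

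Reactive astrocyte genes rose in 4 of 14 cases and fell in 1. Gfap and Vim, the filament genes, rose together with the protease inhibitor gene Serpina3n and the calcium-binding protein gene S100a6, while S100a10, a relative of S100a6, fell. Of the 22 astrocyte identity genes 1 rose (S100b) and 2 fell (Slc4a4 and Ntsr2), and the other 19 did not pass the test. Over all genes tested 12.4% passed, 6.40% as higher and 6.01% as lower in the mutants, and 8 of the 36 astrocyte genes passed (22.2%). By list, 35.7% of the reactive genes passed, and 13.6% of the identity genes, a share near that of all genes. The median log2 change was 0.05 for the reactive genes and -0.14 for the identity genes, beside 0.01 for all genes. The values of the 4 mutants and the 4 wild-type mice did not overlap for 15 of the 36 genes (41.7%), 6 of them higher and 9 lower in the mutants, where 20.7% of all genes did not overlap, 11.4% higher and 9.27% lower. All 22 identity genes lay above 5 in every mouse, while 5 of the 14 reactive genes had all 8 values under 5. When the dimmer genes were left out of the whole fit, 11 of 28 astrocyte genes passed (39.3%), beside 27.9% of the remaining genes.

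**Figure D1:**
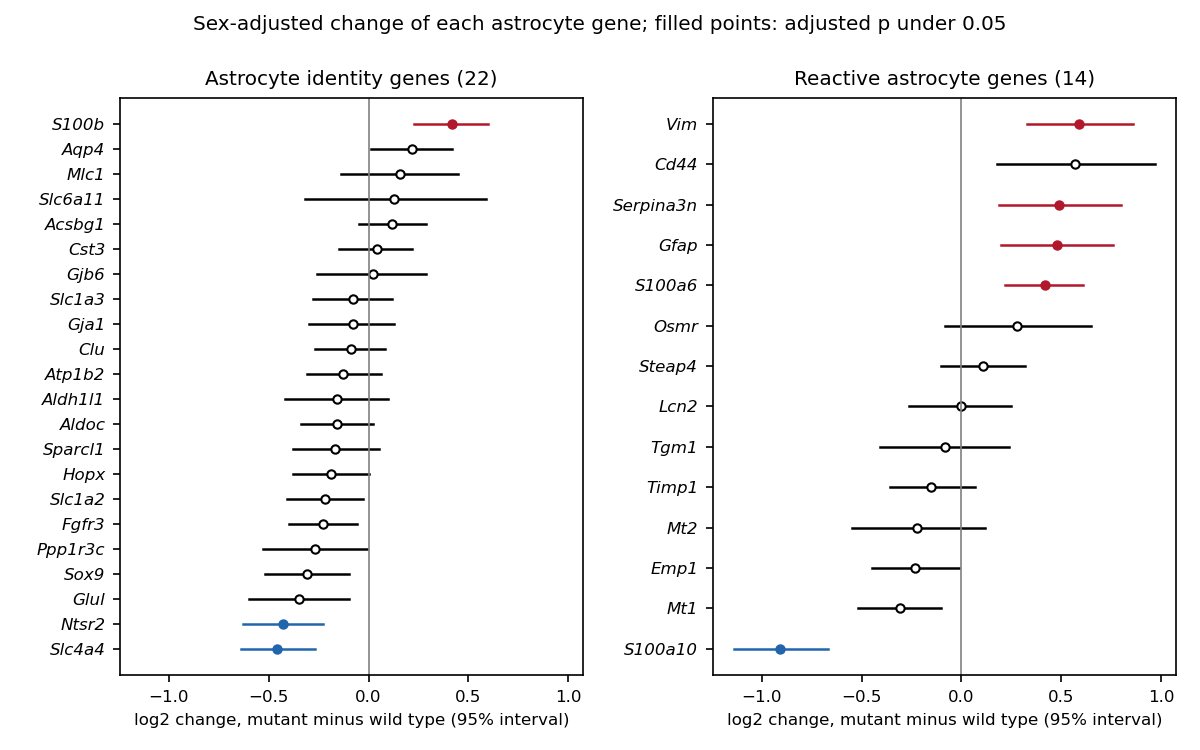
Sex-adjusted log2 change, mutant minus wild type, of each of the 22 identity genes (left) and 14 reactive genes (right), with its 95% interval from limma as a bar; filled points passed an adjusted p under 0.05, red for higher and blue for lower. The reactive genes run from 0.59 for Vim to -0.91 for S100a10, and the identity genes from 0.42 for S100b to -0.46 for Slc4a4.

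Promoter windows of 4 genes that passed are shown so that the reactive genes Gfap, Vim and Serpina3n, which rose, can be set beside the identity gene Ntsr2, which fell. They are RefSeq windows on build GRCm38.p6, from 250 bases before to 50 after the annotated start, written 5′ to 3′ on the gene's own strand. Capitals mark matches to TTCNNNGAA, the spaced palindrome that STAT factors bind, which reads the same on both strands. Cytokine signals reach astrocytes through receptors such as the product of Osmr and act through STAT3.
Gfap, chr11:102897151-102897450, minus strand: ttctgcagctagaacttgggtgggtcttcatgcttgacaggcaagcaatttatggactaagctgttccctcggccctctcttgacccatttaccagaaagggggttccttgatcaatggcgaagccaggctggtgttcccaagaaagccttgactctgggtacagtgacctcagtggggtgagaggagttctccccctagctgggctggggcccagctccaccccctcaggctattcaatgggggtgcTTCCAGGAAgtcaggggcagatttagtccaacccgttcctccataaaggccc
Vim, chr2:13574061-13574360, plus strand: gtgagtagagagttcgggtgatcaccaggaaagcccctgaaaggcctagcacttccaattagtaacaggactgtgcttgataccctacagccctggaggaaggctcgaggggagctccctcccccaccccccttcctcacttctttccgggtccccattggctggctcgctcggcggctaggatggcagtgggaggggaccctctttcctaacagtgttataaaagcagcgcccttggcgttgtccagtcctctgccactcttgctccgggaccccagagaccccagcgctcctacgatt
Serpina3n, chr12:104406458-104406757, plus strand: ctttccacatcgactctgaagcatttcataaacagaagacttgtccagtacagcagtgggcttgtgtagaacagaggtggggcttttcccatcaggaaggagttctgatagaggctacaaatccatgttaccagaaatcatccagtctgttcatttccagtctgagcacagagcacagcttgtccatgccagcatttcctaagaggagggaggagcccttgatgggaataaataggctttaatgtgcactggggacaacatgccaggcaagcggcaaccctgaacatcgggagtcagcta
Ntsr2, chr12:16653220-16653519, plus strand: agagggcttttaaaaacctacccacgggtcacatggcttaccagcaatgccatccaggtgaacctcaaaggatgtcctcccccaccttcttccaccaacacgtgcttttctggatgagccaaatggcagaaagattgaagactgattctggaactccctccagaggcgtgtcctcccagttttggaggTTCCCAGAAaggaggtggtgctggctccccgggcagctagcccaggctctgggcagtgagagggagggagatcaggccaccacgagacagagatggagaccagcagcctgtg

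The match in Gfap begins 2 bases before the annotated start, and that in Ntsr2, a gene that fell, begins 62 bases before it. Vim and Serpina3n rose without a match in their windows, as did S100a6 and S100b, and Slc4a4 fell with none in either of its windows. Ntsr2 was thus the only one of the 3 called identity genes whose window held a match. The reference table held windows for 30 of the 36 genes, 36 windows in all since 6 genes have 2. A match stood in 4 of 15 windows of reactive genes (26.7%) and in 4 of 21 windows of identity genes (19.0%), beside 8.3% of 32851 windows in the whole table. Besides Gfap, the reactive genes with a match were Emp1, Steap4 and Tgm1, which had all values under 5 and did not pass. Besides Ntsr2, the identity genes with a match were Acsbg1, Aldoc and Slc1a3, which did not pass either. TGCNCNC, the core of the metal response element, searched on both strands, stood in 51.0% of all windows. It stood in 40.0% of the windows of reactive genes and in 71.4% of those of identity genes. The windows of the metallothionein genes Mt1 and Mt2, counted as reactive, held 3 and 6 matches. These are letter matches alone and say nothing of binding.

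Gfap encodes the filament protein by which reactive astrocytes are stained. Its values were 9.22, 8.36, 8.82 and 8.55 in wild-type mice 161, 170, 180 and 200, and 9.57, 9.72, 9.44 and 9.18 in mutants 141, 153, 154 and 191. The groups overlapped by a single pair, since female wild-type 161 lay just above male mutant 191, and within each sex every mutant lay above every wild-type mouse. The rise was 1.39-fold (log2 change 0.48, SE 0.13, adjusted p = 0.0341), from 8.74 ± 0.37 (SD, n = 4) to 9.48 ± 0.23. It was 0.35 among the females and 0.60 between mutant 191 and the 3 wild-type males. All 3 Gfap probe sets lay in the same direction, and none of them passed when each was tested alone among 45037 probe sets (log2 changes of 0.48, 0.37 and 1.07, with an adjusted p of 0.0631, 0.136 and 0.0511).

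Vim encodes vimentin, the partner filament protein, which endothelial, ependymal and microglial cells also make. It measured 7.78, 7.03, 7.27 and 7.56 in the wild-type mice and 8.42, 8.40, 8.30 and 7.88 in the mutants, with the mice listed as for Gfap. The groups did not overlap, with wild-type 161 again the highest of its group and mutant 191 again the lowest of its own. Vim rose 1.51-fold (log2 change 0.59, SE 0.12, adjusted p = 0.00994), by 0.59 among the females and 0.60 among the males. Each of its 3 probe sets passed when tested alone, with log2 changes of 0.59, 0.72 and 0.68.

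Serpina3n encodes a secreted serine protease inhibitor that reactive astrocytes produce in many kinds of brain injury. Its values were 5.51, 5.10, 5.42 and 5.31 in wild-type and 5.98, 6.17, 6.43 and 5.58 in mutant mice. The lowest mutant, 191, lay just above the highest wild-type mouse, 161, so the groups stood apart by a narrow gap. Serpina3n rose 1.41-fold (log2 change 0.49, SE 0.14, adjusted p = 0.0407), by 0.68 among the females and 0.30 among the males. Its only probe set did not pass when tested among 45037 probe sets (adjusted p = 0.0734). Gfap, Vim and Serpina3n thus shared an order in which the female of the wild-type group was its highest mouse, the male of the mutant group its lowest, and wild-type 170 the lowest of all 8. In the same fit the female minus male difference was 0.52 for Gfap, 0.49 for Vim and 0.42 for Serpina3n, with an adjusted p for sex of 0.28, 0.289 and 0.359. No astrocyte gene passed the test of sex, which 0.0275% of all genes did. Without sex in the fit their changes were 0.74, 0.84 and 0.70.

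**Figure D2:**
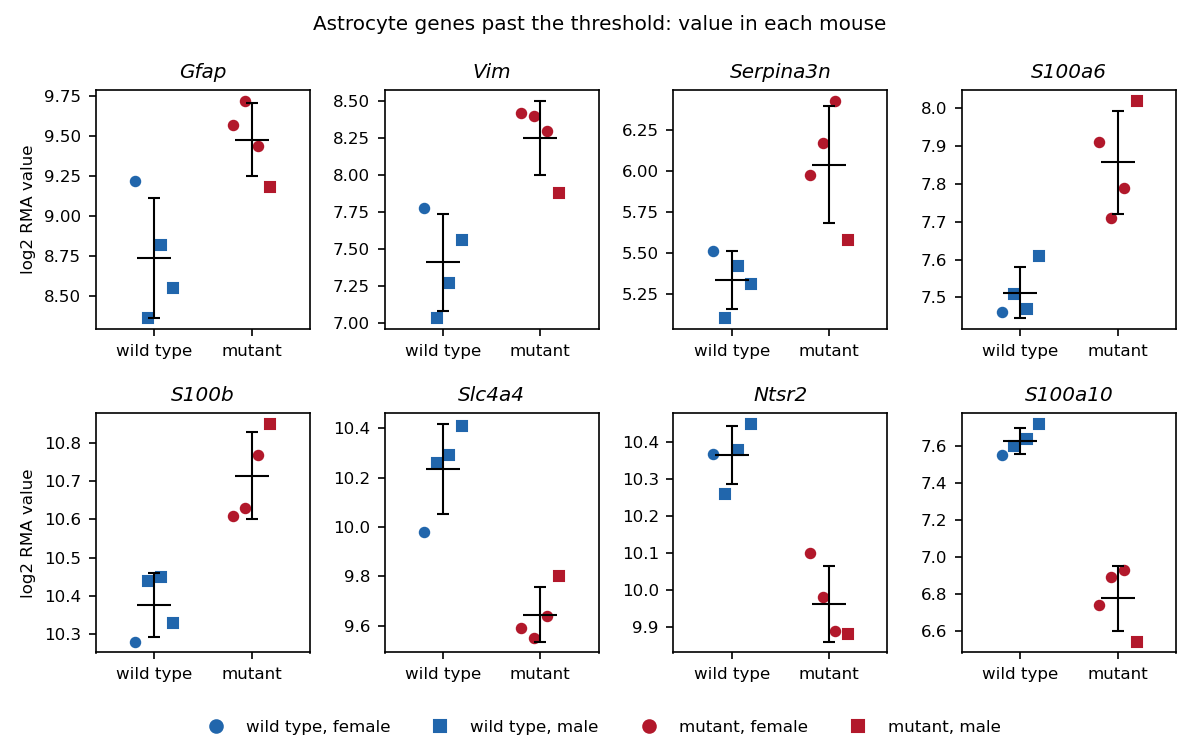
Log2 RMA value of each mouse for the 8 astrocyte genes past the threshold, wild type in blue and mutant in red, circles for females and squares for males; black bars show the group mean and SD (n = 4). The vertical axes do not start at 0 and differ between genes. The groups overlap for Gfap alone, where wild-type 161 at 9.22 lies above mutant 191 at 9.18.

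Of the other secreted reactive proteins neither was measurable above background. Lcn2, which encodes lipocalin-2, an iron-carrier-binding protein strongly induced by inflammation, lay between 3.21 and 3.61 in all 8 mice. Timp1, an inhibitor of matrix metalloproteinases, lay between 3.92 and 4.31.

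Among the surface proteins of reactive astrocytes none passed the test. Cd44 and Osmr were higher in every mutant than in every wild-type mouse, as were 11.4% of all genes. Cd44 encodes the hyaluronan receptor and measured 5.12, 4.69, 5.07 and 5.14 in wild-type and 5.26, 5.28, 5.84 and 5.77 in mutant mice. All mutants lay above all wild-type mice, 154 and 191 by most, with a log2 change of 0.57 (95% interval 0.18 to 0.97, adjusted p = 0.0641). It passed without sex in the fit (0.53, adjusted p = 0.0339), with a trended and robust prior (0.0389) and without mutant 141 (0.0434) or 153 (0.0489), while its change was 0.14 on the mean of its 4 probe sets (0.393). Osmr, the receptor subunit for oncostatin M, measured 4.49 to 4.55 in wild-type mice and 4.63, 4.71, 5.36 and 4.71 in mutants, with a log2 change of 0.28 (95% interval -0.08 to 0.65). Only mutant 154 was above background for it, and its 2 other probe sets, with all values under 5, had changes of -0.12 and -0.10. Emp1, a small membrane protein gene, and Steap4, a metalloreductase gene, had all 8 values under 5, with log2 changes of -0.23 (95% interval -0.45 to -0.01) and 0.11 (-0.10 to 0.32). The values of Tgm1, which encodes a protein-crosslinking transglutaminase, were under 5 as well, at -0.08 (-0.41 to 0.24).

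The S100 genes of the set, which encode small calcium-binding proteins, moved in opposite directions. S100a10 encodes p11, a partner of annexin A2 that striatal neurons also make. It measured 7.55, 7.60, 7.64 and 7.72 in wild-type mice and 6.74, 6.89, 6.93 and 6.54 in mutants, so that a wide gap separated 2 tight groups. Its log2 change was -0.91 (SE 0.11, adjusted p = 0.000459), 1.87-fold lower, the largest change of the 36 genes in either direction. Of its 3 probe sets 2 passed alone, and the third had all values under 5. S100a6 encodes calcyclin, found in astrocytes and in other cells, and measured 7.46, 7.51, 7.47 and 7.61 in wild-type and 7.91, 7.71, 7.79 and 8.02 in mutant mice. The groups did not overlap, and it rose 1.33-fold (log2 change 0.42, SE 0.09, adjusted p = 0.0121).

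S100b, counted among the identity genes, encodes the classical astrocyte S100 protein, which some oligodendrocytes and ependymal cells make too. It measured 10.28, 10.44, 10.45 and 10.33 in wild-type mice and 10.61, 10.63, 10.77 and 10.85 in mutants. All mutants lay above all wild-type mice, and here male mutant 191 was the highest and female wild-type 161 the lowest, the reverse of their places for Gfap and Vim. S100b rose 1.34-fold (log2 change 0.42, SE 0.08, adjusted p = 0.00877), and its second probe set also passed alone (log2 change 0.52, adjusted p = 0.00967).

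The metallothioneins Mt1 and Mt2, zinc-binding proteins that astrocytes make in quantity and raise under stress, did not pass the test. Mt1 measured 11.93, 11.84, 11.90 and 12.08 in wild-type and 11.73, 11.79, 11.76 and 11.50 in mutant mice. Every mutant lay below every wild-type mouse, but the log2 change of -0.31 did not pass (95% interval -0.52 to -0.10, adjusted p = 0.0620). The groups overlapped for Mt2, whose log2 change was -0.22 (95% interval -0.55 to 0.12).

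Among identity genes for ion and water transport, Slc4a4 fell. It encodes the sodium bicarbonate cotransporter NBCe1, by which astrocytes regulate pH. It measured 9.98, 10.26, 10.29 and 10.41 in wild-type mice and 9.59, 9.55, 9.64 and 9.80 in mutants. The groups did not overlap, with wild-type 161 and mutant 191 nearest to each other. Slc4a4 was 1.37-fold lower (log2 change -0.46, SE 0.08, adjusted p = 0.00556). Of its 5 probe sets 4 were lower and 3 passed alone, the largest at -0.93, and the fifth had all values under 5.

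The other genes of this class did not pass. Aqp4, the water channel of astrocyte endfeet, measured 8.27 to 8.43 in wild-type and 8.41, 8.45, 8.47 and 8.73 in mutant mice, with a log2 change of 0.22 (95% interval 0.01 to 0.42, adjusted p = 0.173). Its interval reached from near 0 to a rise, and mutant 191 alone stood clearly above the rest. The gap junction genes Gja1 (connexin 43) and Gjb6 (connexin 30) had log2 changes of -0.08 (95% interval -0.30 to 0.13) and 0.02 (-0.26 to 0.29). Atp1b2, a sodium pump subunit, and Mlc1, a membrane protein of the endfeet, stood at -0.13 (-0.31 to 0.06) and 0.16 (-0.14 to 0.45).

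None of the 4 genes of transmitter uptake and recycling passed. Slc1a2 encodes GLT-1, the main glutamate transporter of the forebrain, and measured 12.33, 12.28, 12.47 and 12.40 in wild-type and 12.02, 12.02, 12.09 and 12.24 in mutant mice. Every mutant lay below every wild-type mouse by a small margin, 191 the least. The log2 change was -0.22 (95% interval -0.41 to -0.03, adjusted p = 0.13), and all 5 probe sets had a change below 0. It passed without sex in the fit (log2 change -0.28, adjusted p = 0.0340). On the mean of its probe sets Slc1a2 did not pass (-0.28, adjusted p = 0.171), nor with any 1 of the 8 mice left out. Slc1a3, which encodes the related transporter GLAST, overlapped between the groups, at -0.08 (95% interval -0.28 to 0.12). Glul, the glutamine synthetase that turns the captured glutamate into glutamine, measured 12.19, 11.88, 12.31 and 12.14 in wild-type and 11.91, 11.86, 11.98 and 11.68 in mutant mice. Its groups overlapped through wild-type 170, and its log2 change was -0.35 (95% interval -0.60 to -0.10, adjusted p = 0.0678). Among the 8 fits with 1 mouse left out, Glul passed only where 170 was dropped (-0.40, adjusted p = 0.0283). Whether the RNA quality of 170 bears on this was not tested. The dimmer probe set of Glul passed when tested alone (-0.56, adjusted p = 0.0165). Slc6a11, the GABA transporter GAT-3, measured 5.91 in wild-type 170 and 6.68 to 6.86 in the other 7 mice, so that its log2 change of 0.13 (95% interval -0.32 to 0.59) became -0.01 without that mouse.

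Metabolic genes of astrocytes did not pass. Aldh1l1, the folate enzyme used to label astrocytes, stood at -0.16 (95% interval -0.42 to 0.10), with mutant 153 lowest at 7.64 and the other 7 mice between 8.0 and 8.34. Aldoc, the brain aldolase of glycolysis, measured 12.48 to 12.63 in wild-type and 12.31 to 12.44 in mutant mice, which did not overlap, and its log2 change was -0.16 (95% interval -0.34 to 0.02). Ppp1r3c, which directs a phosphatase to glycogen, was at -0.27 (95% interval -0.53 to -0.01), and Acsbg1, an acyl-CoA synthetase, at 0.12 (-0.05 to 0.29).

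The 4 transcription factor and receptor genes were lower in every mutant than in every wild-type mouse, as were 9.27% of all genes. Of the 4, Ntsr2 fell. S100b, planned in 1 group with them as a calcium-binding gene, went the other way and was higher without overlap. Ntsr2 encodes a neurotensin receptor of astrocytes and measured 10.37, 10.26, 10.38 and 10.45 in wild-type and 10.10, 9.98, 9.89 and 9.88 in mutant mice. The lowest wild-type mouse lay above the highest mutant, and the gene was 1.34-fold lower (log2 change -0.43, SE 0.09, adjusted p = 0.0122). Sox9, the glial fate transcription factor, measured 7.32 to 7.57 in wild-type and 7.01 to 7.26 in mutant mice. Its change of -0.31 did not pass (95% interval -0.52 to -0.10, adjusted p = 0.0574), though it did without sex in the fit (-0.27, adjusted p = 0.0458). On the mean of its probe sets the change of Sox9 was -0.18 (adjusted p = 0.252). Fgfr3, a fibroblast growth factor receptor of astrocytes and their progenitors, was at -0.23 (95% interval -0.40 to -0.06, adjusted p = 0.0839) and passed without sex (-0.30, adjusted p = 0.0202). On the mean of its probe sets the change of Fgfr3 was -0.13 (adjusted p = 0.658). Neither Sox9 nor Fgfr3 passed with any 1 of the 8 mice left out. Hopx, a homeodomain cofactor, measured 9.64 to 9.92 in wild-type and 9.49 to 9.57 in mutant mice, with a log2 change of -0.19 (95% interval -0.38 to 0.00).

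None of the 3 secreted proteins counted with identity passed. Clu (clusterin) stood at -0.09 (95% interval -0.27 to 0.08), Sparcl1 (hevin), which promotes synapse formation, at -0.17 (-0.38 to 0.05), and Cst3 (cystatin C), which microglia also make, at 0.04 (-0.15 to 0.22). The last interval reaches at most 0.22 upward, below the changes measured for the 5 genes that rose.

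Each list was also summed up per mouse, as the mean distance of its genes from their own means over the 8 mice. For the identity genes it was 0.05, -0.04, 0.15 and 0.08 in wild-type mice 161, 170, 180 and 200 and -0.11, -0.09, -0.05 and 0.00 in mutants 141, 153, 154 and 191. For the reactive genes it was 0.00, -0.18, -0.05 and -0.05 in the wild-type and 0.06, 0.07, 0.20 and -0.05 in the mutant mice. The groups overlapped on both lists, the identity list through wild-type 170 and mutant 191 and the reactive list through mutant 191. For medium spiny neuron markers the same measure lay between 0.65 and 0.78 in the wild-type mice and between -0.83 and -0.60 in the mutants.

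**Figure D3:**
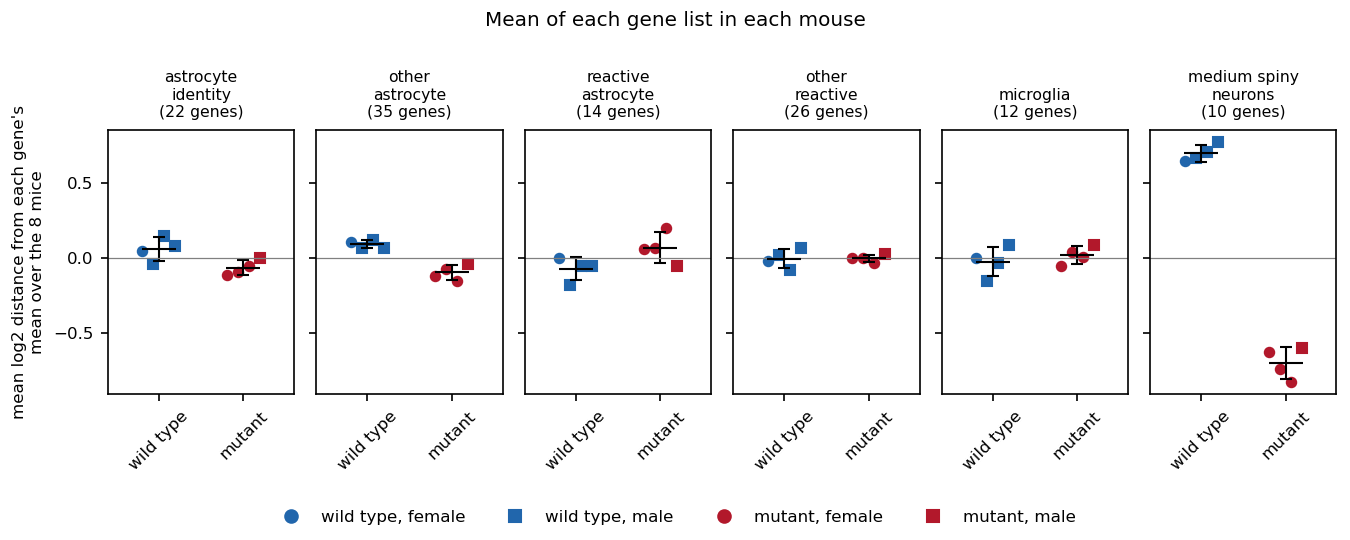
Mean log2 distance of the genes of a list from their own means over the 8 mice, 1 point per mouse (circles female, squares male; blue wild type, red mutant), with the group mean and SD (n = 4) as black bars. Identity and reactive astrocyte lists stay within 0.20 of 0 in every mouse, while the medium spiny neuron list spans 0.78 to -0.83.

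A separate list of 35 further astrocyte genes held 8 that fell (22.9%, beside 6.01% of all genes) and 0 that rose. The mean of the list lay between 0.07 and 0.12 in the wild-type mice and between -0.15 and -0.04 in the mutants, without overlap. Its median log2 change was -0.08, and 24 of the 35 lay below 0. The means of the endothelial and mural list and of the medium spiny neuron list did not overlap either. Id4, an inhibitor of helix-loop-helix transcription factors, measured 11.51, 11.47, 11.64 and 11.65 in wild-type and 10.72, 10.78, 10.51 and 10.72 in mutant mice, a log2 change of -0.85 (SE 0.10, adjusted p = 0.000373), 1.81-fold lower. The groups lay far apart, and the call held with any single mouse left out. Mfge8, a secreted protein that tags material for uptake by phagocytes, was 1.64-fold lower, and Rfx4, a transcription factor of glia and their progenitors, 1.5-fold lower. Rfx4 lost its call without wild-type 161 (-0.48, adjusted p = 0.0619) and moved to -0.33 on the mean of its probe sets, where it still passed. Cbs, Itih3, Grin2c, Ttyh1 and Etnppl, named after their values were seen, also fell, from 1.33-fold for Grin2c to 1.66-fold for Etnppl. Kcnj10, the potassium channel Kir4.1 of astrocytes, measured 8.98 to 9.18 in wild-type and 8.89, 8.75, 9.0 and 9.15 in mutant mice and had a log2 change of -0.03 (95% interval -0.24 to 0.18). The count of falls was 3 without mutant 191 and 2 without wild-type 161, when 3.86% and 4.75% of all genes passed in either direction. When both that mouse and the sex term were dropped, the count was 9 and 8, beside 13.7% and 13.2% of all genes.

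A list of 30 further reactive astrocyte genes, 26 of them measured, held 2 that rose (7.69%, beside 6.40% of all genes) and 1 that fell (3.85%, beside 6.01%), shares near those of all genes. Its median log2 change was 0.03. H2-D1, a class I histocompatibility gene made by many cell types, measured 7.90, 7.47, 8.11 and 7.97 in wild-type and 8.86, 8.81, 8.97 and 9.0 in mutant mice and rose 2.10-fold (log2 change 1.07, SE 0.15, adjusted p = 0.00112). On the mean of its 9 probe sets the change was 0.25 and the call was lost (adjusted p = 0.0571). The receptor gene S1pr3 had a log2 change of 0.60 (adjusted p = 0.0492), with overlap between the groups, and the call was lost without sex in the fit (0.40, adjusted p = 0.172) and with any mouse but mutant 153 left out. Fbln5, an extracellular matrix gene, was 1.79-fold lower (log2 change -0.84). Its call was lost without mutant 191 (adjusted p = 0.0584) or wild-type 161 (0.0649), and its change was -0.40 on the mean of its probe sets (0.0499). All values lay under 5 for 13 of the 26 genes. C3, a complement gene often used to define a reactive class, was not analysed here.

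Of 12 measured genes of JAK-STAT3 signalling, the route by which cytokines act on Gfap, 1 rose and 1 fell (8.33% each way), shares near those of all genes. Lifr, the receptor of leukemia inhibitory factor, rose 1.27-fold (adjusted p = 0.0239), and the kinase gene Jak2 was 1.45-fold lower (adjusted p = 0.0159). Lifr lost its call without mutant 191 (adjusted p = 0.149), wild-type 161 (0.214) or wild-type 200 (0.0522), and also when its probe sets were averaged (0.22, adjusted p = 0.0829). Jak2 lost its call without wild-type 161 (-0.35, adjusted p = 0.273). Stat3 itself measured 7.93 to 8.13 in wild-type and 8.08 to 8.44 in mutant mice, a log2 change of 0.17 (95% interval -0.05 to 0.39).

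Markers of other cells that make some of these transcripts were read beside them. Over all genes tested 6.40% rose and 6.01% fell, so a count of 0 or 1 in lists this short says little about a cell type. Of 12 microglial genes 0 rose and 0 fell, with changes from -0.36 for Aif1 (adjusted p = 0.0509) to 0.24, and their mean ran from -0.15 to 0.09 in wild-type and from -0.05 to 0.09 in mutant mice. Of 10 endothelial and mural genes 1 fell (Cdh5, with all values under 5) and none rose, Cldn5 standing at -0.51 (adjusted p = 0.0821). The mean of the 10 genes ran from 0.00 to 0.25 in wild-type and from -0.17 to -0.02 in mutant mice, without overlap. Of 9 oligodendrocyte genes Opalin rose (log2 change 0.31, adjusted p = 0.0199), Mobp fell (-0.38, adjusted p = 0.0225) and Mbp stood at -0.13, and their mean ran from -0.06 to 0.18 in wild-type and from -0.09 to 0.01 in mutant mice. Mag, named after its value was seen, was higher without overlap and did not pass (0.31, adjusted p = 0.0907). Cdh5, Opalin and Mobp each lost the call without mutant 191 or wild-type 161, and Opalin (0.20, adjusted p = 0.0983) and Mobp (-0.25, adjusted p = 0.282) also on the mean of their probe sets. Of 8 ependymal and choroid plexus genes Ccdc153 (-0.76) and Rsph1 (-0.78, with overlap between the groups) fell and none rose. Without wild-type 161 both calls were lost, at -0.40 (adjusted p = 0.341) and -0.31 (0.543), and that of Rsph1 also without mutant 141 (0.0562) or 154 (0.0521) or wild-type 170 (0.0561) or 200 (0.0714). For the 8 genes the mean varied widely, from -0.37 to 0.91 in wild-type and from -0.82 to 0.83 in mutant mice. None of 6 meningeal and fibroblast genes passed, and of 5 cortical genes Fezf2 fell (-0.67), with overlap between the groups, and lost its call without sex in the fit (-0.39, adjusted p = 0.2), without mutant 191 (-0.45, adjusted p = 0.281) and with values under 5 raised to 5 (-0.32, adjusted p = 0.0873). The mean of the 5 cortical genes ran from -0.30 to 0.63 in the wild-type mice, and from -0.97 in mutant 191 to 0.76 in mutant 154. All 10 medium spiny neuron markers fell, by a median of 1.38 on the log2 scale, among them the sodium channel subunit gene Scn4b (-2.49), the enkephalin gene Penk (-1.63), the signalling regulator gene Rgs9 (-1.54) and the DARPP-32 gene Ppp1r1b (-1.01). The part that any of these cell types has in the values of the astrocyte genes was not tested.

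The calls of the astrocyte genes were fewest without mutant 191 or wild-type 161, the lone male mutant and the lone female wild-type mouse. Without 191 the fit with sex compares the genotypes among females alone, 3 mutants against wild-type 161. Without 161 it compares them among males alone, mutant 191 against 3 wild-type mice. Both fits lose precision, and the changes move as well. Gfap stood at 0.35 without 191 and at 0.60 without 161, and Serpina3n at 0.68 and 0.30. How far the lost calls come from these mice or from the lost precision was not tested. S100a10 alone passed without 191, and S100a10 and Slc4a4 without 161, when the share of all genes that passed also dropped, to 3.86% and 4.75%. When the sex term was dropped along with the mouse, 10 and 11 of the 36 passed (27.8% and 30.6%), beside 13.7% and 13.2% of all genes. All 8 genes of the full comparison passed each time. Without wild-type 200, where 9.83% of all genes passed, reactive rises numbered 2, Gfap and Serpina3n being lost. The call of Gfap was also lost without mutant 153 (adjusted p = 0.0545), and that of Serpina3n without 153 (0.0617) or wild-type 170 (0.0688). S100a10 passed with any of the 8 mice left out, between -1.12 and -0.70. For no astrocyte gene did the effect of genotype differ between the sexes in a fit with an interaction term (lowest adjusted p = 0.969, where 0.00550% of all genes passed), a fit in which 2 of the 4 combinations hold 1 mouse.

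**Figure D4:**
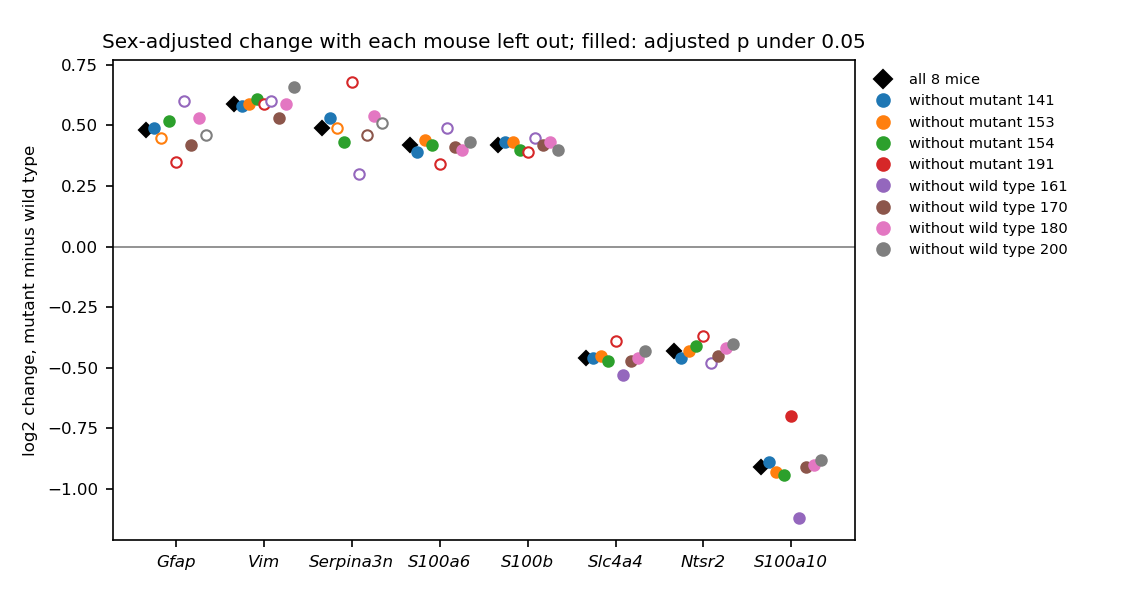
Sex-adjusted log2 change, mutant minus wild type, of the 8 astrocyte genes past the threshold, with all 8 mice (black diamonds) and with each mouse left out (coloured circles); filled symbols have an adjusted p under 0.05. Every value keeps its sign, S100a10 stays filled throughout, and Gfap ranges from 0.35 to 0.60 and Serpina3n from 0.30 to 0.68.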

How the data were processed

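Striatal RNA of 8 mice was hybridised to Affymetrix Mouse Genome 430 2.0 arrays after TRIzol and RNeasy extraction and biotin labelling, per the labels' protocols. The authors deposited log2 values made with RMA and the affy package, per the submitters' processing notes. The sources used here give no version of either. This method equalises the arrays, so a shift of most genes cannot be seen, and it compresses dim genes. No arrays were left out, and depth does not apply: 4 mice per group limit the precision.

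Of 45101 probe sets 64 controls were dropped and 34945 had 1 gene symbol, which gave 18193 genes. limma 3.58.1 (R 4.3.3), lmFit and eBayes with genotype and sex, was adjusted over all genes by Benjamini-Hochberg and tested on simulated data. The 36 genes, their split into identity and reactive, and the 10 other lists were chosen with earlier results of these data known. Named genes are all 36, the 3 lowest adjusted p past the threshold per other list, and Kcnj10, Stat3, C3, Aif1, Mbp, Cldn5 and Ppp1r1b; exceptions are named as such. Alternatives changed the sex term, prior, normalization, probe sets, floor, dim genes and mice. The fit without 170 and sex was added after seeing the data.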

Additional observations from a re-analysis of the deposited data

Results flagged for a closer look

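In 76 groups of 4 values checked for a sample far from the rest, 7 stood out, where chance flags about 1 group in 20. For RNA quality, wild-type 170 lay at 1.37 for Gapdh with the rest of its group between 0.32 and 0.34, and at 2.65 for beta-actin, with the rest between 1.36 and 1.43. The same mouse was low for Cd44, at 4.69 against 5.07 to 5.14. Mutant 154 was high for Osmr, at 5.36 against 4.63 to 4.71, and for Emp1, at 4.71 against 4.5 to 4.53, where all values are near background. Wild-type 180 was high for Aldh1l1, at 8.34 against 8.15 to 8.16, and mutant 191 for Acsbg1, at 9.07 against 8.90 to 8.92. No astrocyte gene passed the test of a different genotype effect in the sexes.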

How the results depend on the processing

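No paired analysis was possible because the groups share no mouse numbers. Of all genes, 2258 passed, and between 702 and 2258 with 1 mouse left out. The 5 genes that rose and 3 that fell kept their direction under every alternative that gave a value except in 1 dim Slc4a4 probe set (0.05). The count of identity genes that fell was 2 in the main analysis, where 12.4% of the genes tested passed in either direction. It was 5 without sex (15.2% of the genes tested), 4 with the trended and robust prior (15.2%), 4 with the floor (21.8%) and 5 without dimmer genes (27.9%). It was 4 without sex and 161 (13.2%), 4 without sex and 191 (13.7%) and 5 without sex and 170 (12.7%). With 1 mouse left out the count lay between 0 and 3, and the share of the genes tested between 3.86% and 12.4%. Reactive genes that fell numbered 2, not 1, with that prior, with the floor and without dimmer genes, Mt1 being the addition. With 1 mouse left out, identity rises lay between 0 and 1, reactive rises between 0 and 5, and reactive falls stayed at 1. The cause of these shifts was not tested. Changes of sign occurred only in genes without a call: Lcn2 (0.01 without sex, with quantile normalization and with median centring, 0.03 and 0.01 without sex and 161 or 191, and -0.04 to 0.05 with 1 mouse left out), Atp1b2 (0.00 on the mean of probe sets), Slc6a11 (-0.04) and Cst3 (-0.01) without sex and 170, and, with 1 mouse left out, Gjb6 (-0.02 to 0.08), Mt2 (-0.46 to 0.02), Gja1 (-0.18 to 0.01) and Slc6a11 (-0.01 to 0.21). Single probe sets of opposite sign were those of Slc1a3 (0.10, 0.02 and 0.13), Gja1 (0.09), Atp1b2 (0.13), Sox9 (0.02), Cd44 (-0.02 and -0.16), Osmr (-0.12 and -0.10), Emp1 (0.16) and Steap4 (-0.02). Genes with all values at the floor, and the dimmer genes, gave no value under those alternatives.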

Other observations

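S100a6 and S100a10 lie in a cluster of S100a genes on mouse chromosome 3, and the rest of that cluster was read after their values were seen. Of its 12 measured members S100a6, S100a10 and 1 more, S100a4, passed, and of the 9 that did not 6 had all values under 5; 12.4% of all genes passed. S100a4, which stands near S100a6 in the order of the cluster and encodes a calcium-binding protein of motile cells, also rose (log2 change 0.43, SE 0.11, adjusted p = 0.0250), without overlap between the groups. S100a1 and S100a13 had log2 changes of 0.19 (95% interval 0.01 to 0.36) and 0.25 (0.03 to 0.47), and S100a16 one of -0.01 (-0.21 to 0.19). S100a10, the last measured member in that order, was the only member that fell. The metallothionein gene Mt3, a neighbour of Mt1 and Mt2 with high expression in brain, had a log2 change of -0.05 (95% interval -0.24 to 0.14).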
